A study of Mus musculus with 38 samples.

Results

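Brown adipose tissue, the fat that burns fuel for heat, was profiled in C57BL/6J mice fed a high fat high sucrose diet (HFC) and in mice whose high fat high sucrose diet came with 75 micrograms of Kal-1, an ethno-botanical preparation (HF75). The arrays described here are those labelled HF75 or HFC at weeks 3, 6, 9, 12, 15 and 18, chosen by these labels alone, and number 12 of the 38 arrays of the series, 6 in each group. The other arrays belong to a low fat control diet (LFC), to the doses of 5 and 20 micrograms (HF5 and HF20) and to earlier days of LFC and HFC. Weeks are given as labelled. The paper, on liver of the same experiment, counted them from a day when the diets had already begun. All groups were of the same strain and were weaned at 3 to 4 weeks of age before the diets began, and HFC and HF75 both received 60% of calories from fat, so the formulation was the labelled difference between them. The labels speak of 5 animals killed per group at each interval, and the design text of 3 replicates. There is only 1 array per group and week, and the labels do not say whether it holds RNA of 1 animal or of several. The weeks therefore served as the replicates of a group, and each HF75 array was compared with the HFC array of its week.

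Brown adipocytes are packed with mitochondria whose inner membrane carries uncoupling protein 1, encoded by Ucp1, which lets protons back in without making ATP and so releases heat. Fatty acids are both the fuel and the activator of this protein. Brown adipocytes therefore express fatty acid oxidation enzymes strongly, and also the enzymes that make new fatty acids. The genes Cidea, Cox8b, Cox7a1 and Elovl3 mark brown against white adipocytes, while Adipoq, Plin1 and Fabp4 mark both kinds.

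The tissue label was checked first against these markers, on the log2 scale of signal relative to the 75th percentile of each array. On the 6 HFC arrays Ucp1 lay between 6.04 and 8.24, and on the HF75 arrays of weeks 6 to 18 between 5.53 and 6.97. On the HF75 array of Week 3 it was at -3.08. Cidea, a lipid droplet protein, was at -1.78 on that array and at 5.81 to 8.06 on the other 11 arrays. Cox8b, a subunit of cytochrome oxidase, was at -2.01 there and at 5.23 to 7.85 elsewhere. Zic1, a transcription factor that marks interscapular brown fat, was at -8.24 against -3.59 to -0.20. The markers common to all adipocytes were present on the same array, with Adipoq at 4.16, Cidec at 4.93 and Cfd, which encodes adipsin, at 6.05. They were lower there as a set, however. The summed level of the 12 general adipocyte genes was 8.27, against 9.20 to 11.06 on the other HF75 arrays and 9.03 to 10.79 in HFC. The median difference of this list at Week 3 was -2.18. Fabp4 was saturated on all 12 arrays and gives no order. Not every brown gene was low there. Prdm16 was at 1.67, within the 1.41 to 2.34 of the other arrays, Ppargc1b at -1.01 was within the range of the HF75 group, and Ebf2 at 0.66 and Adrb3 at 2.18 were the highest of that group. The Week 3 HF75 array thus carried adipocyte markers, with Ucp1, Cidea, Cox8b and Zic1 far below the other arrays.

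That array also held signal for genes that were low on the rest. Wt1, a transcription factor of mesothelium and visceral fat, was at 0.54 and between -8.12 and -4.33 on the other 11 arrays. Msln, which encodes mesothelin, was at 2.51 against -8.20 to -2.74, and the epithelial keratin Krt18 at 1.92 against -4.70 to -0.70. Of the 12 genes of the epithelial and mesothelial list, 10 were well above background on it, beside 9 on the HFC array of Week 12. Their summed level was 3.67 against -1.10 to 0.34 on the other HF75 arrays and -2.38 to 1.81 on the HFC arrays. All 12 of the white adipocyte list were well above background there, beside 10 on the HFC array of Week 12. Their summed level was 4.87 against 2.20 to 2.72 and 2.50 to 2.98. Such counts also depend on the array, since the share of all probes well above background was 68.2% on the HF75 array of Week 3 and 78.8% on the HFC array of Week 12. The comparisons below were therefore made with and without Week 3.

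**Figure D1:**
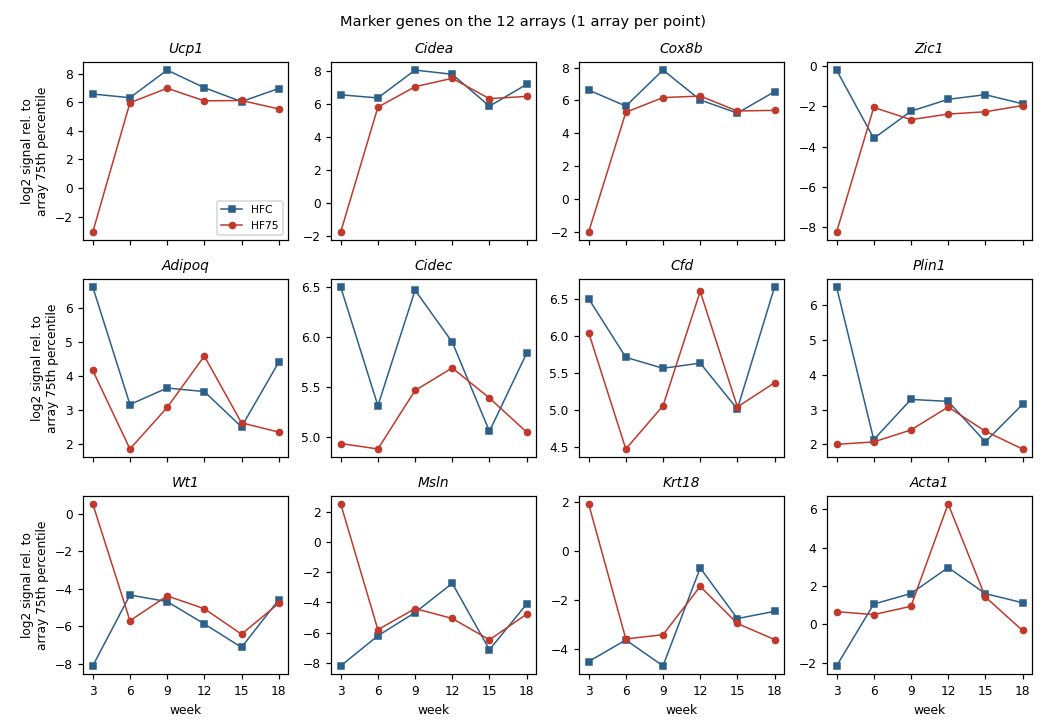
Levels of 12 marker genes on the 12 arrays, as log2 signal relative to the array's 75th percentile (y) against week (x), with 1 array per point, HF75 as circles and HFC as squares. On the HF75 array of Week 3 the brown markers Ucp1, Cidea, Cox8b and Zic1 lie between -8.24 and -1.78 while Wt1, Msln and Krt18 lie above all other arrays, and Acta1 reaches 6.28 on the HF75 array of Week 12.

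A second HF75 array stood apart by its muscle genes. At Week 12 the skeletal actin gene Acta1 was at 6.28 in HF75, against -0.32 to 1.43 on the other HF75 arrays and at most 2.96 on any HFC array. The fast myosin gene Myh4 reached 8.73 there, with 1.60 as the highest HFC level. The summed level of the 23 skeletal muscle genes was 11.07 at this point and 3.44 to 5.10 on the other HF75 arrays, against 3.44 to 6.50 in HFC. The liver marker Alb was also highest there, at 0.60. The part of muscle or other tissue in the differences of Week 12 was not tested, and in whole tissue fewer cells of a type cannot be told apart from less RNA per cell.

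The arrays differed in brightness and likeness. The 75th percentile of the processed signal was 695 and 873 intensity units on the arrays of Week 3 and between 34.9 and 239 on the other 10, and the share of probes well above background ran from 43.1% to 78.8%. HF75 was the brighter array at weeks 3 and 18 and the dimmer at the other weeks. Correlations between arrays over the genes tested, which are not independent, ran from 0.695 to 0.968, and the lowest was between HF75 of Week 3 and HFC of Week 18. The 12 arrays lay on 12 slides, and at 5 of 6 weeks both arrays were scanned on the same day.

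The main comparison asked which genes differed between HF75 and HFC over the whole course. Of 16672 genes tested with limma, with the week as a block, 0 (0%) passed an adjusted p of 0.05 over weeks 3 to 18, where the lowest value after adjustment was 0.560. Before adjustment, 766 genes were higher in HF75 (4.59%) and 620 lower (3.72%) at p under 0.05. Quantile normalization gave 895 higher and 453 lower. Without Week 3, 0 (0%) passed, with a smallest adjusted p of 0.680, and 481 genes were higher (2.89%) and 501 lower (3.01%) at the unadjusted threshold, or 642 and 279 with quantile normalization. The unadjusted total depended on the weeks counted. Over weeks 3 to 18 it was 1386, with 2360 without Week 9 and 822 without Week 12. Over weeks 6 to 18 it was 982, with 2640 without Week 9, 429 without Week 12 and 600 without Week 15. The methods' t-test, which ignores the week, also gave 0 genes after adjustment in both periods, and 1474 and 1122 before it.

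Genes higher in HF75 at 6 of 6 weeks numbered 463 (2.78%), and 420 were lower at every week (2.52%). Over weeks 6 to 18 the numbers were 662 (3.97%) and 559 (3.35%). The levels of the groups did not overlap at all for 31 genes higher (0.186%) and 12 lower (0.072%) over weeks 3 to 18, and for 93 (0.558%) and 28 (0.168%) without Week 3. The median difference over all genes was 0.07 log2 with Week 3 and 0.09 without it. The genes first named below were those with the smallest p that went the same way at every week of a period. None had an adjusted p below 0.560 over weeks 3 to 18 or below 0.680 over weeks 6 to 18, so none passed.

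Of these genes Cyp1a1 on chromosome 9 had the smallest p over weeks 3 to 18. It encodes a cytochrome P450 that oxidises polycyclic aromatic compounds, and it is the classic target of the aryl hydrocarbon receptor. This receptor is a ligand-activated transcription factor that binds the core GCGTG in front of its targets. In HF75 Cyp1a1 was at -5.71, 2.92, 0.48, 1.92, 4.12 and 0.81 at weeks 3, 6, 9, 12, 15 and 18, and in HFC at -8.24, 1.0, -0.25, -1.57, 1.95 and -0.84. HF75 lay above HFC in each week, by 0.73 to 3.49 log2, although the levels of the groups overlapped both with and without Week 3. Both arrays of Week 3 were the lowest of their group, and the HFC signal of that week was not well above background. The mean difference was 2.08 (SE 0.37, 6 of 6 weeks higher), a 4.23-fold difference, and 1.99 (SE 0.40) without Week 3.

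The 250 bases before the Cyp1a1 transcription start are shown because Cyp1a1 leads the genes higher in HF75. The sequence is from RefSeq (GRCm38.p6, chr9:57697363-57697612, plus strand), and capitals mark the core GCGTG, which was searched on both strands and found 1 time, 54 bases before the start. Of 32851 promoter windows of the same length, 28.2% held it on either strand. The match is to the core alone, and binding of the receptor there was not tested.
Cyp1a1: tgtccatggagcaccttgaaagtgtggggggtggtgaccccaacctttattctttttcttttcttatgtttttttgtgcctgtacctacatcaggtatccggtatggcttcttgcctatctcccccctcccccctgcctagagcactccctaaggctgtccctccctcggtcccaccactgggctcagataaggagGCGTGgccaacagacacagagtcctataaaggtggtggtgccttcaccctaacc

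Other genes under the same receptor were looked at after Cyp1a1 had been seen. Nqo1, a quinone reductase, was higher in HF75 at 6 of 6 weeks, by 1.5 (SE 0.59) with Week 3 and 0.81 (SE 0.30) without. Its levels in HF75 were 1.43 at Week 3 and -1.59 to -0.50 later, and in HFC between -3.51 and -1.26. Tiparp, a poly-ADP-ribose transferase, differed by 0.12 (SE 0.34), and Cyp1b1 by 0.07 (SE 0.65), each with weeks on both sides of 0. Cyp1a2, Ahrr and Aldh3a1 were too dim to be tested. Of the 25 tested genes of the xenobiotic and antioxidant list, 2 were higher and 1 lower at the unadjusted threshold in both periods. Of all genes, 4.59% were higher and 3.72% lower over weeks 3 to 18, and 2.89% and 3.01% over weeks 6 to 18. The members past it were Cyp1a1 and Nqo1 against Gpx3, a secreted glutathione peroxidase that was lower by 0.82 (SE 0.32) over weeks 6 to 18. The list's median was 0.07 with Week 3 and 0.00 without.

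Genes of neutrophil granules came next. Camp encodes the antimicrobial peptide cathelicidin and Ltf the iron-binding lactoferrin, and both lie on chromosome 9. Camp was at -0.37, -2.10, -1.56, 0.14, -0.40 and 0.58 in HF75 and at -4.27, -4.75, -3.32, -1.33, -1.58 and -1.26 in HFC. Its mean difference was 2.13 (SE 0.38), higher at 6 of 6 weeks, and 1.78 (SE 0.29) without Week 3. Its signal exceeded background on 6 of 6 HF75 and 4 of 6 HFC arrays. Ltf ran from -2.18 to 0.98 in HF75 and from -3.22 to -0.37 in HFC, and differed by 1.49 (SE 0.30) and 1.58 (SE 0.31). A second Ltf probe gave 1.23. Under the alternatives run, the Camp difference shrank to as little as 0.64 over weeks 3 to 18 and 0.26 over weeks 6 to 18. That of Ltf shrank to 0.55 and 0.51.

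Not all granule genes followed. In a list put together after Camp and Ltf were seen, 9 of 12 genes could be tested, and 2 were higher at the unadjusted threshold, Camp and Ltf themselves. Of all genes, 4.59% were higher at that threshold over weeks 3 to 18 and 2.89% over weeks 6 to 18. In sign, 8 of the 9 were positive over weeks 3 to 18, with a median of 0.96 (9141 of all 16672 genes). Over weeks 6 to 18, 7 of the 9 were positive, with a median of 0.98 (9475 of all 16672). The alarmin S100a8 was higher in HF75 by 1.04 (SE 0.63) at 4 of 6 weeks, and its partner S100a9 by 0.96 (SE 0.58) at 4 of 6. Mpo, which encodes myeloperoxidase, differed by 0.35 (SE 0.49) with 3 weeks on each side. Ifitm6, an interferon-induced transmembrane protein gene outside this list, was higher by 1.73 (SE 0.46) over weeks 6 to 18, with single weeks from 0.39 to 3.60.

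Pou5f2, on chromosome 13, showed groups that did not overlap. It lay between 0.02 and 0.46 on the 6 HF75 arrays and between -1.28 and -0.60 on the 6 HFC arrays, a difference of 1.14 (SE 0.26), or 2.21-fold. It encodes a POU domain transcription factor. Elovl7, an enzyme that elongates long chain fatty acids, also did not overlap, at -0.99 to -0.07 in HF75 and -1.82 to -1.26 in HFC, with a difference of 1.01 (SE 0.26). A dimmer Elovl7 probe gave 0.42. With all 5 groups in the fit Pou5f2 was the only gene to pass over weeks 3 to 18 (adjusted p = 0.0370 from limma).

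The next 4 genes were higher by the same rule, and for some of them the probes differed. Tcf7l2, a transcription factor of Wnt signalling, was higher by 1.15 (SE 0.29) on its brightest probe, while its other probes gave -0.71 and 0.09. Slc4a7, a sodium bicarbonate cotransporter, named from weeks 6 to 18, was higher by 1.28 (SE 0.34) at those weeks and by 1.87 (SE 0.54) with Week 3, when the difference was 4.82. Its dimmer probes gave 0.08 and 0.00 over weeks 6 to 18. Scn3b, a sodium channel subunit, was higher by 1.47 (SE 0.39), and its 2 probes near background gave 0.26 and -0.26. The gene listed as D1Ertd622e, now named Macir, was higher by 1.17 (SE 0.29).

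**Figure D2:**
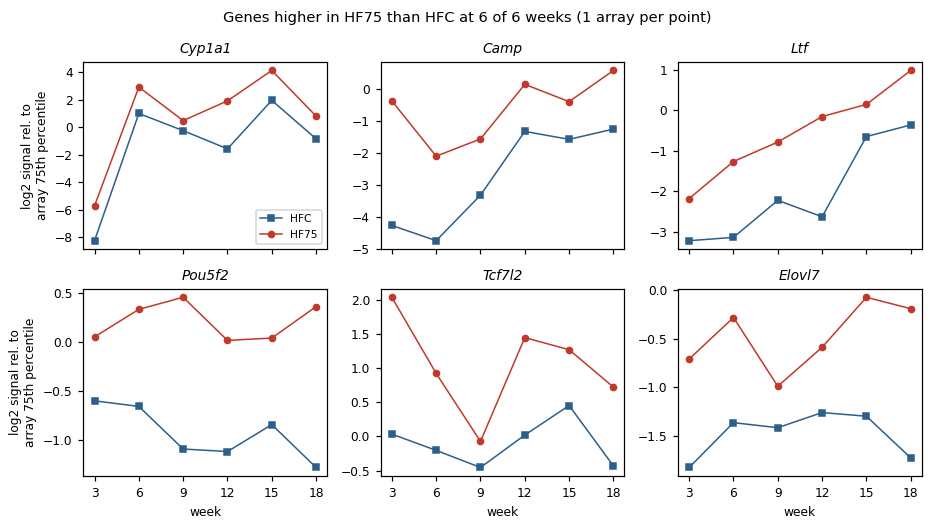
Levels of 6 genes on the HF75 (circles) and HFC (squares) arrays, as log2 signal relative to the array's 75th percentile (y) against week (x), with 1 array per point. HF75 lies above HFC at 6 of 6 weeks for each gene, and for Pou5f2 and Elovl7 the lowest HF75 array is above the highest HFC array.

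Among the genes named as lower over weeks 3 to 18, Lep had the smallest p. It encodes leptin, the satiety hormone that adipocytes secrete in proportion to their fat store and that white fat expresses far more than brown. Lep on chromosome 6 was at -1.44, -5.86, -4.44, -2.75, -5.47 and -4.78 in HF75 and at 0.13, -1.82, -2.08, -2.40, -3.77 and -1.71 in HFC. HF75 was the lower array at 6 of 6 weeks, with a mean difference of -2.18 (SE 0.46) and the smallest gap at Week 12 (-0.36). On all 6 HFC arrays Lep stood well above background, and among the HF75 arrays it did so on 1 of 6, that of Week 3. Taking the dimmest probe that the scanner software called above background as the limit on each later HF75 array, Lep was at least 1.67-fold lower in HF75 over weeks 6 to 18. This bound is for the processed signal as used here. It did not hold with another background correction (normexp), where Lep differed by 0.016 over those weeks.

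Nnat, an imprinted gene on chromosome 2 that encodes the membrane proteolipid neuronatin and is expressed in adipocytes and neurons, was also lower at each week. It was at -1.09, -4.13, -2.91, -3.96, -4.61 and -4.04 in HF75 and at -0.50, -2.82, -1.79, -1.25, -2.76 and -0.56 in HFC. The difference was -1.84 (SE 0.41, 6 of 6 weeks lower) and -2.09 (SE 0.40) without Week 3, when the groups did not overlap. Nnat stood above background in HF75 on the Week 3 array alone, 1 of 6, and was at least 2.39-fold lower over weeks 6 to 18. Among the alternatives run, its difference over those weeks shrank to as little as -0.12, so this bound too is for the processed signal only. In the white adipocyte list, which holds Lep, 7 of 12 genes could be tested, with a median of 0.00 with Week 3 and -0.55 without. Sncg, which encodes gamma-synuclein, was higher in HF75 by 2.75 at Week 3 and lower at the 5 later weeks, at 0.21 to 0.79 against 0.80 to 1.39, a difference of -0.55 (SE 0.25) without overlap. Npr3, the clearance receptor of natriuretic peptides, differed by 0.55 and 0.42 in the 2 periods. The size for Lep and Nnat changed with other treatments of the background, for a cause that was not tested. With 50 units added to every signal, Lep differed by -0.43 and Nnat by -0.38 over weeks 3 to 18, and with normexp correction Lep differed by 0.016 over weeks 6 to 18.

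Brighter genes lower in HF75 at 6 of 6 weeks included Cxcl14 and Aldh2. Cxcl14, a chemokine that brown adipocytes secrete, was at -0.42 to 0.55 in HF75 and 0.59 to 2.43 in HFC, so the groups did not overlap, and differed by -1.33 (SE 0.29). Aldh2, the mitochondrial aldehyde dehydrogenase, was at 0.47 to 2.15 against 1.82 to 3.28, a difference of -1.19 (SE 0.28).

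The remaining genes named as lower were dimmer or depended on the weeks counted. Plekhf1, a phosphoinositide-binding protein gene, differed by -1.44 (SE 0.32) and the polycomb gene Ring1 by -1.26 (SE 0.30), and both exceeded background on 4 of 6 HF75 arrays. Under the alternatives run, Plekhf1 shrank to as little as -0.33 over weeks 3 to 18 and -0.12 over weeks 6 to 18. Ring1 shrank to -0.21 and -0.12. Amy2a5, a pancreatic amylase gene with near-identical copies that its probe may not tell apart, exceeded background on 3 of 6 HF75 and 6 of 6 HFC arrays. Its measured difference of -2.24 (SE 0.52) became -1.22 with a floor at the lowest signal above background, -0.73 with 50 units added and -0.54 with normexp. H2-Aa, a chain of the class II antigen-presenting molecule, differed over weeks 6 to 18 by -1.22 (SE 0.29) but higher by 1.16 at Week 3. Sema4c, a semaphorin, differed by -1.82 (SE 0.43) at weeks 6 to 18 and was higher by 2.88 at Week 3. A second Sema4c probe of similar brightness gave -0.91 over weeks 6 to 18.

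**Figure D3:**
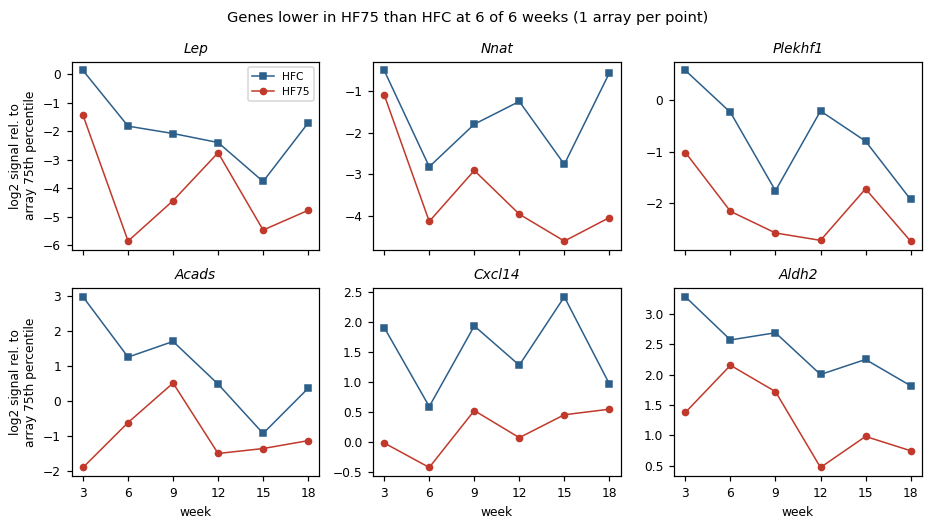
Levels of 6 genes on the HF75 (circles) and HFC (squares) arrays, as log2 signal relative to the array's 75th percentile (y) against week (x), with 1 array per point. HF75 lies below HFC at 6 of 6 weeks for each gene, and for Cxcl14 the highest HF75 array, 0.55, is below the lowest HFC array, 0.59.

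The other doses were set beside HF75 for the leading genes, as mean differences from the same 6 HFC arrays, which all 3 doses share. Cyp1a1 differed by 2.50 in HF5 (5 of 6 weeks higher) and by -2.48 in HF20 (1 of 6). Camp differed by -0.52 in HF5 and -0.72 in HF20, and Ltf by -0.70 and -0.36, with weeks on both sides of 0. Lep differed by -1.02 in HF5 and 1.46 in HF20, and Nnat by -0.89 and 1.0. Cxcl14 differed by -0.98 (0 of 6 weeks higher) and -0.20. The differences between doses were not tested. The HF20 arrays were brighter, with a median 75th percentile of 708 units against 116 in HF5, 141 in HFC and 94.3 in HF75.

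Brown thermogenic genes had mostly negative differences, of a size that rested largely on Week 3. Of 24 genes 22 could be tested, and 21 of these had a negative difference over weeks 3 to 18, with a median of -1.45. Of all genes tested 7531 of 16672 were negative, with a median of 0.07. Without Week 3, 20 of 22 were negative with a median of -0.45, beside 7197 of 16672 genes and a median of 0.09. At the unadjusted threshold 5 were then lower, beside 3.01% of all genes, and 0 higher. None passed adjustment. The list's weekly medians were -6.62, -0.32, -0.95, -0.29, 0.15 and -1.03, so Week 15 did not share the direction. Ucp1 differed by -9.65 at Week 3, where the HFC array was saturated and the fold is a lower bound, and by -0.35, -1.27, -0.92, 0.08 and -1.43 at weeks 6 to 18. Its mean over those 5 weeks was -0.78 (SE 0.31), or 0.58-fold, with a second Ucp1 probe at -0.79.

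Within the list the differences over weeks 6 to 18 varied from gene to gene. Ppara, the receptor that turns on fatty acid oxidation genes, was at 0.09, 1.22, -0.28, 0.02 and -1.23 in HF75 and at 0.81, 2.38, 1.42, 0.39 and 1.65 in HFC, lower at each week with a mean of -1.36 (SE 0.39). The coactivator Ppargc1b on chromosome 18 differed by -1.19 (SE 0.30) and was lower at 5 of 5 weeks, with -0.46 at Week 15 as the smallest gap. Kcnk3, a potassium channel, differed by -0.93 (SE 0.27), and Acot11, an acyl-CoA thioesterase of brown fat, by -0.99 (SE 0.36), each lower at 5 of 5 weeks. By comparison Cidea differed by -0.42 (SE 0.30), Cox7a1 by -0.35 (SE 0.30), Cox8b by -0.56 (SE 0.35) and Dio2, which activates thyroid hormone, by -0.15 (SE 0.39). Prdm16, the transcriptional switch of brown fate, differed by 0.21 (SE 0.25), and Elovl3, a fatty acid elongase, by -0.06 (SE 0.39). Whether these genes differ from each other was not tested. At Week 3 the HFC array was the highest of its group for several of them, with Ppargc1b at 4.79 and Ppara at 5.20.

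Enzymes that burn fuel gave medians of the same sign. In the fatty acid oxidation list 22 of 22 tested genes had a negative difference over weeks 3 to 18, with a median of -1.03, and 21 of 22 without Week 3, with a median of -0.43. At the unadjusted threshold 7 and 4 were lower, beside 3.72% and 3.01% of all genes, and 0 higher. Acads, the dehydrogenase of short chain fatty acids, was at -1.89, -0.61, 0.51, -1.50, -1.35 and -1.13 in HF75 and at 2.96, 1.25, 1.69, 0.48, -0.92 and 0.36 in HFC, lower at 6 of 6 weeks. Its mean difference over weeks 6 to 18 was -1.39 (SE 0.31). Slc25a20, which carries acylcarnitines into mitochondria, differed by -1.02 (SE 0.26) at the same weeks.

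The tricarboxylic acid cycle completes the oxidation of these fuels, and 18 of its 21 genes were negative over weeks 6 to 18, with a median of -0.47 and 4 lower at the unadjusted threshold (3.01% of all genes). With Week 3 the median was -1.14 and 9 were lower (3.72% of all genes). Ogdh, the core subunit of oxoglutarate dehydrogenase, differed by -1.04 (SE 0.32), and Idh3b, a subunit of isocitrate dehydrogenase, by -0.83 (SE 0.27), each lower at 5 of 5 weeks. Of 29 genes of mitochondrial respiration 24 were negative without Week 3, with a smaller median of -0.27, and 2 were lower at the unadjusted threshold (3.01% of all genes), Cyc1 of complex III (-0.70, SE 0.26) and Sdhb of complex II (-0.81, SE 0.32). In the glucose list Eno1, which encodes the glycolytic enzyme enolase, differed by -1.19 (SE 0.35), and the list's median was -0.13.

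Of the lists, that of fatty acid synthesis genes had the lowest median without Week 3. Of 19 tested genes of the lipogenesis list, 10 were lower and 1 higher over weeks 3 to 18 at the unadjusted threshold (3.72% and 4.59% of all genes), with a median of -1.10. Over weeks 6 to 18, 6 were lower and 1 higher (3.01% and 2.89% of all genes), with a median of -0.68. Fasn, the fatty acid synthase, was at 4.40, 6.22, 6.90, 6.21, 5.73 and 4.52 in HF75 and at 6.48, 6.79, 7.66, 7.05, 6.16 and 7.10 in HFC, lower at 6 of 6 weeks, with differences from -0.43 to -2.58. The HFC array of Week 3 was saturated for Fasn. Scd1, which puts a double bond into stearate, differed by -1.08 (SE 0.40) and was lower at 4 of 5 of the later weeks. Agpat2, which makes phosphatidic acid on the way to triglyceride, differed by -1.05 (SE 0.32). The list's weekly medians were below 0 at 6 of 6 weeks, from -0.05 at Week 15 to -2.84 at Week 3. The genes of cholesterol synthesis had medians of 0.02 and 0.16. Without Week 18, when HFC stood apart from other arrays, the median of lipogenesis was -0.30 over the remaining 4 weeks and that of the brown thermogenic list -0.27. Without Week 9 the median of fatty acid oxidation was -0.21 and that of mitochondrial respiration -0.12.

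**Figure D4:**
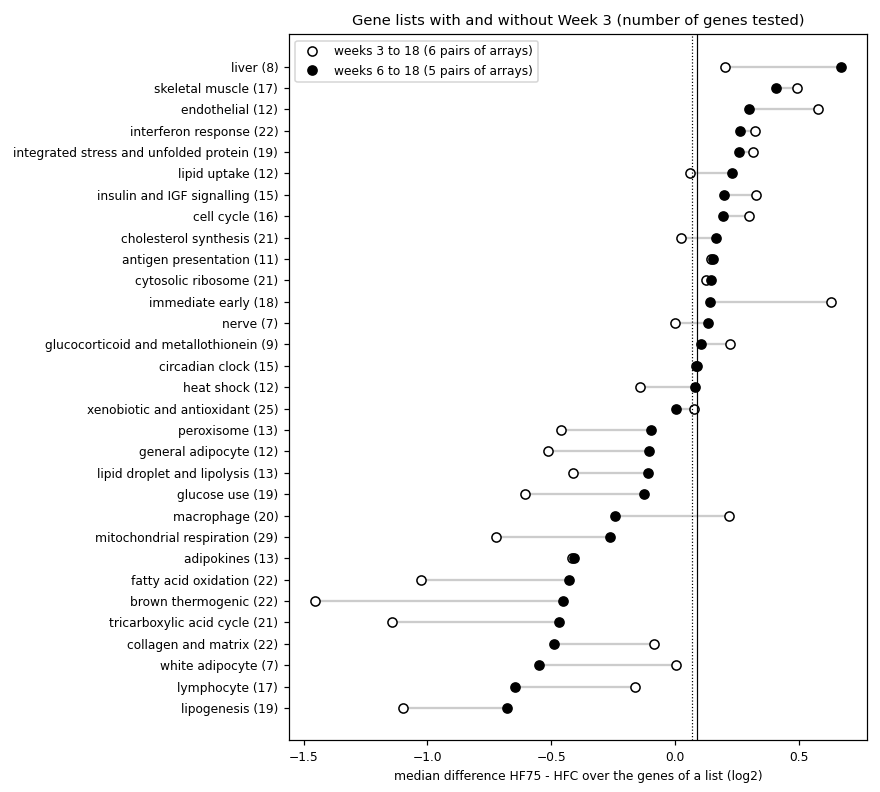
Median HF75 minus HFC difference (x, log2) over the tested genes of 31 lists with at least 7 genes tested (y, number of genes in brackets), over weeks 3 to 18 (open circles) and weeks 6 to 18 (filled circles), with the median of all genes tested as a dotted and a solid line. The brown thermogenic median is -1.45 with Week 3 and -0.45 without, and lipogenesis is lowest without Week 3 at -0.68.

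Akt2, the kinase through which insulin acts on glucose uptake, differed by -1.02 (SE 0.28) over weeks 6 to 18 and was lower at 5 of 5 weeks, while the insulin and IGF list as a whole had a median of 0.20. The glucocorticoid-induced genes Fkbp5 and Tsc22d3 were higher at 4 of 5 weeks, by 1.20 (SE 0.41) and 0.84 (SE 0.36). Adipokines had a median of -0.41 and, beside Lep, 0 genes past the unadjusted threshold over weeks 6 to 18. Plin5, a droplet protein of oxidative tissues, differed by -0.69 (SE 0.27) and was lower at 5 of 5 weeks.

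Among lists of other cell types, lymphocyte genes differed by 1.71, 0.70, 0.71, -0.40, -3.19 and -0.54 in the median at weeks 3 to 18, so that Week 15 set the sign of the median without Week 3, -0.65, which was 0.09 with Week 15 also left out. Collagen and matrix genes had a median of -0.49 over weeks 6 to 18, with 4 of 22 lower at the unadjusted threshold (3.01% of all genes), and -0.10 without Week 15. Among them Mmp2, a matrix metalloproteinase, differed by -1.21 (SE 0.50). In the endothelial list Cdh5, the cadherin of endothelial junctions, was higher by 0.76 (SE 0.31), and 10 of 12 genes were positive (9475 of all 16672) with a median of 0.30. Macrophage genes had medians of 0.22 with Week 3 and -0.24 without, and 0 of 20 passed the unadjusted threshold in either period. The erythroid marker Alas2 differed by 0.19 (SE 0.31) over weeks 6 to 18, and Hba-a1 was saturated on 3 of 6 HF75 and 5 of 6 HFC arrays and gives no difference.

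Of 22 interferon-induced genes, 16 had a positive difference without Week 3, beside 9475 of all 16672 genes, with a median of 0.26 and 0 past the unadjusted threshold. Over weeks 3 to 18, Ifit2 among them was higher at 6 of 6 weeks, by 0.85 (SE 0.32). Immediate early genes had a median of 0.63 with Week 3, when they differed by 3.05, and 0.14 without. The clock genes had medians of 0.08 and 0.09, close to all genes, and Arntl, a core activator of the clock, differed by -0.60 (SE 0.27) over weeks 6 to 18. Heat shock genes had medians of -0.14 and 0.08, ribosomal protein genes 0.12 and 0.14, and cell cycle genes 0.30 and 0.19.

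**Figure D5:**
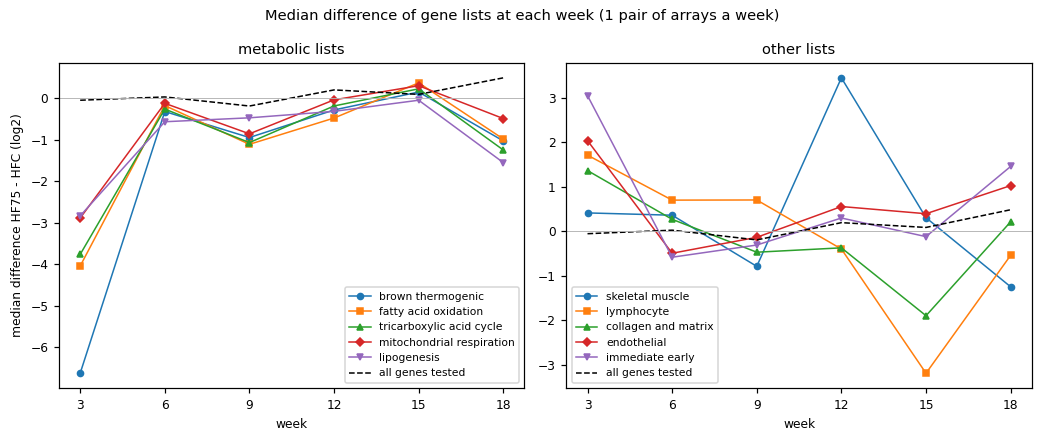
Median HF75 minus HFC difference (y, log2) of 10 gene lists at each week (x), with metabolic lists on the left, other lists on the right and all genes tested as a dashed line, each point from 1 pair of arrays. The metabolic lists are lowest at Week 3 (-2.84 to -6.62), the muscle list peaks at Week 12 (3.45) and the lymphocyte list is lowest at Week 15 (-3.19).

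Single weeks were then compared without a test, since each week holds 1 pair of arrays. More than a 2-fold difference was found for 3803 genes higher and 3967 lower in HF75 at Week 3 (46.6% of the genes measured), 1149 and 892 at Week 6 (12.2%), 2277 and 1172 at Week 9 (20.7%), 2014 and 2295 at Week 12 (25.9%), 658 and 2267 at Week 15 (17.6%), and 5080 and 3070 at Week 18 (48.9%). The median of all genes was 0.49 at Week 18 and between -0.19 and 0.20 at the other weeks. With 50 units added to every signal the counts of Week 6 were 289 and 285. Normexp correction turned the balance at Week 6, to 57 higher and 169 lower, at Week 9, to 168 and 1776, and at Week 18, to 55 and 1215. At Week 12 it turned with quantile normalization, to 4223 and 1491, and with 50 units added, to 661 and 355. A floor at the lowest signal above background also turned it, to 2070 and 1710.

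The last comparison asked whether the difference between the groups moved with time. The number of genes passing was 0 (0%), with a smallest adjusted p of 0.0750 in limma, and at the unadjusted threshold the difference became more positive per week for 1005 genes (6.03%) and more negative for 1206 (7.23%). Quantile normalization gave 1000 and 649. Without Week 3 there were 639 and 1303, with a smallest adjusted p of 0.288. Of the genes named, Rhox4a had the steepest slope. It is a homeobox gene of the reproductive cluster on the X chromosome with near-identical neighbours that its probe may not tell apart. Its difference went from 6.41 and 5.87 at weeks 3 and 6 to -1.10 and -1.69 at weeks 15 and 18, a slope of -0.61 per week (SE 0.06). In HFC it lay between -4.35 and -1.87 up to Week 9 and between 1.99 and 2.76 after, while HF75 stayed between 0.70 and 3.63. Tgm5, a transglutaminase, and Rbpjl, a transcription factor of exocrine pancreas, had slopes of -0.47 (SE 0.05) and -0.51 (SE 0.06) with the same split of HFC levels. In the other direction the differences of Hsph1, a heat shock protein, and Lpl, the lipase that frees fatty acids from lipoproteins, had slopes of 0.27 (SE 0.05) and 0.28 (SE 0.06). Lpl was lower in HF75 at weeks 3, 6 and 9 and higher at weeks 12, 15 and 18, by 2.44 at the end. Leaving out Week 6 let 23 genes pass, among them Rhox4a and Tgm5 (adjusted p = 0.0442 and 0.0431 from limma).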

How the data were processed

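Total RNA was labelled with Cy3 and run with 1 colour per array on an Agilent mouse design, per the labels. The values used are the deposited processed signal, an intensity from which the scanner software had removed background and the spatial trend, with no scaling between arrays. File headers name Feature Extraction 10.5.1.1 and the submitters' processing notes 9.1. A deposited table of the authors' own log2 fold changes against LFC was not used. Spots that the software called outliers were left out, log2 was taken, and each array's 75th percentile was subtracted. Each of 29411 gene names kept its brightest probe over the 12 arrays, and 16672 of them, above background by the software's call on 6 arrays or more, were tested. Of 40628 probes, 34524 (85%) matched RefSeq genes (GRCm38.p6).

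The fits were made with limma 3.58.1 (lmFit, eBayes) under R 4.3.3, with data.table (version 1.17.8) reading the tables. They were two-sided, held the week as a block, and were adjusted by Benjamini-Hochberg over all genes tested, with 0.05 as the threshold. SE are those of the fit. P values measure the spread between weeks, part of which may be technical, and the number of arrays limits the precision. The steps were tested on simulated data. As fewer than 10 genes passed, the genes named were, per period, the 8 higher and 8 lower genes with the smallest p that moved the same way at every week, exceeded background on every array of 1 group and had a symbol that was not a clone, predicted, olfactory receptor or accession name. For the slope they were the 3 with the smallest p in each direction. Of the lists, every brown thermogenic gene and otherwise the 3 members with the smallest p over weeks 6 to 18 could be named, and cell type markers by their levels. A gene that this rule names is not reported here. The receptor and granule lists were added after their leading genes were seen. All members, lists and tests were chosen with earlier results of these data known. Alternatives covered normalization, background, filters, block, samples in the fit, slide, array weights, brightness, scan day, each week left out and the methods' t-test.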

Additional observations from a re-analysis of the deposited data

Results flagged for a closer look

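Of 122 sets of 6 arrays checked, 27 held an array with a Dixon's ratio above 0.625. This ratio is the gap to the nearest other array as a share of the range of its group. Chance gives about 1 in 20 for a single set. The sets share the same arrays and were chosen with earlier results known, the low brown markers of Week 3 among them. The count of 27 is therefore a description and was not tested against that rate. The HF75 array of Week 3 accounted for 16 and the HFC array of Week 3 for 9.

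On the HF75 array of Week 3 the lowest levels concerned Ucp1 (ratio 0.856), Cidea (0.812), Cox7a1 (0.820), Cox8b (0.881), Elovl3 (0.634), Zic1 (0.889), Otop1 (0.676), Slc27a2 (0.703), Fabp3 (0.828) and Cyp1a1 (0.630). The summed brown thermogenic level (0.790) and the summed nerve level (0.631) were also lowest there. The same array was highest for Ebf2 (0.650) and for the summed levels of the white adipocyte (0.804), macrophage (0.659) and epithelial and mesothelial (0.699) lists.

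The HFC array of Week 3 was highest for Ppargc1a (0.727), Ppargc1b (0.716), Ebf2 (0.782), Adrb3 (0.626), Otop1 (0.697), Slc27a2 (0.683), Kcnk3 (0.781) and Mpzl2 (0.640), and lowest for Cyp1a1 (0.654). Ppargc1a, for example, was at 3.83 there and at -1.01 to 0.31 on the other HFC arrays. The HF75 array of Week 12 was highest for the summed skeletal muscle level (0.783), and the HFC array of Week 15 for the summed macrophage level (0.735).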

How the results depend on the processing

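The count of genes passing over weeks 6 to 18 was 0 under every alternative run. Over weeks 3 to 18 it was 1 with all 5 groups in the fit and 1 with the slide as a random block, and 0 otherwise. For the slope it was 10 when genes had to exceed background on all 12 arrays, 2 with all 5 groups, 1 with the slide as a random block, 1 with array weights, 44 with brightness as a covariate, 23 with scan day as the block, which leaves out Week 6, and 0 to 23 with each week left out in turn. The methods' t-test has no slope and was not run for it.

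Counts past 2-fold, higher then lower in HF75, moved as follows. Quantile normalization gave 4223 and 1491 at Week 12. Normexp gave 57 and 169 at Week 6, 168 and 1776 at Week 9, 4081 lower at Week 12, 4562 and 4889 at Week 15, and 55 and 1215 at Week 18. A floor at the lowest signal above background gave 1473 and 671 at Week 9, and turned the balance at Week 12, to 2070 and 1710. With 50 units added, chosen after seeing the data, they were 289 and 285 at Week 6, 374 and 348 at Week 9, 661 and 355 at Week 12, 339 and 810 at Week 15, and 2856 and 1348 at Week 18. Normexp left median signals of 64.0 to 702 units where background-subtracted medians were 13.9 to 95.2. Before adjustment it gave 44 genes higher and 345 lower over weeks 3 to 18, and 12 and 139 over weeks 6 to 18. With 50 units added these were 727 and 297, and 640 and 265.

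Of the values of single genes under the alternatives, 760 kept their direction and side of the threshold, 12 passed it in the same direction and 1 turned sign, Lep over weeks 6 to 18 with normexp (0.016). The cause was not tested.

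Arrays of the same week share a number but no stated animal. Their deviations from the group means correlated at 0.289, 0.531, 0.0700, 0.285, 0.192 and -0.172 at weeks 3 to 18. The HF75 array matched the HFC array of its own week best at weeks 3, 6 and 15. Without the replicate block 0 genes passed in each of the 3 comparisons, and the counts before adjustment were 1447, 994 and 2192 against 1386, 982 and 2211 with it. Signal over background limits dim genes such as Camp, Lep and Nnat.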
